A study of Mus musculus with 6 samples.

Results

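The genes described here encode the tumour necrosis factor (TNF) superfamily ligands, their receptors and the Traf adaptors, measured in bone marrow-derived macrophages (BMMs) on their way to becoming osteoclasts, with and without recombinant GDF11 (rGDF11). A gene was included if a probe set of the array was paired with its symbol alone and that symbol began with Tnfsf or Tnfrsf, was Traf with a number, or was *Tnf*, *Lta*, *Ltb*, *Ltbr*, *Fas*, *Fasl*, *Cd40*, *Cd40lg*, *Cd27* or *Cd70*. This gave 45 of the 19938 genes that some probe set names alone, each with 1 such probe set, namely 15 ligands, 24 receptors and 6 Traf adaptors. The rule reads gene names and no measured value, and it was set with earlier results of these data known.

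The study asked how GDF11, a circulating ligand related to TGF-β and the activins, alters osteoclast formation driven by RANKL. BMMs were grown with macrophage colony-stimulating factor (M-CSF) from the tibial marrow of 9-week-old mice, and the study's methods name female C57BL animals. All cells then received RANKL at 50 ng/ml together with M-CSF at 100 ng/ml for 24 h, so no group without RANKL was measured. The control group (called RANKL alone below) got vehicle and the other group 100 ng/ml rGDF11, with 3 biological replicates and 1 Affymetrix Mouse Gene 1.0 ST array per replicate in each. The sources used here do not say whether each replicate was a different animal, and p-values therefore reflect only how far these 6 samples spread, which may be technical. Values are log2 expression from the robust multichip average (RMA), and each is the level of 1 probe set. Levels of single genes were not set against each other. They were placed above or below the median level of the tested probe sets, averaged over marker lists, and printed for some markers.

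TNF superfamily ligands are mostly membrane proteins that act as trimers, and many are also shed from the cell surface. Their receptors fall into those with a cytoplasmic death domain, which can start apoptosis or necroptosis, those that bind Traf proteins directly and lead to NF-κB and MAP kinase activation, and decoys that bind ligand without signalling. In the osteoclast lineage the central pair is RANKL (*Tnfsf11*) and its receptor RANK (*Tnfrsf11a*), which signals through Traf6, while osteoprotegerin (*Tnfrsf11b*) is the soluble decoy that captures RANKL.

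With rGDF11, 16 of the 45 genes changed at an adjusted p under 0.05, 5 of them upwards and 11 downwards. Over all 23410 probe sets tested, 7.31% were called higher and 8.64% lower, or 16.0% in either direction, against 11.1%, 24.4% and 35.6% of the TNF family genes. Calls were more frequent among probe sets above the median level, where 27.2% of all tested probe sets (12.1% higher and 15.1% lower) and 12 of 26 family genes were called. At or below that level 4.72% of all tested probe sets (2.53% higher and 2.19% lower) and 4 of 19 family genes were called. The median log2 fold change of the family was 0.04, beside 0.02 for all tested probe sets. At the fold change of 1.5 and unadjusted p under 0.01 that the methods set, 4 family genes were higher and 5 lower, where 2.06% and 2.96% of all probe sets were, or 5.03% in either direction. Arrays of the 2 groups did not overlap for 24 of the 45 genes, while 32.9% of all probe sets showed such a separation. The number of family genes called lower was 6 without the first RANKL array, 7 without the second or the third, 7 without the first or the second rGDF11 array and 8 without the third. The number called higher ran from 4 to 6 in the same fits.

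**Figure D1:**
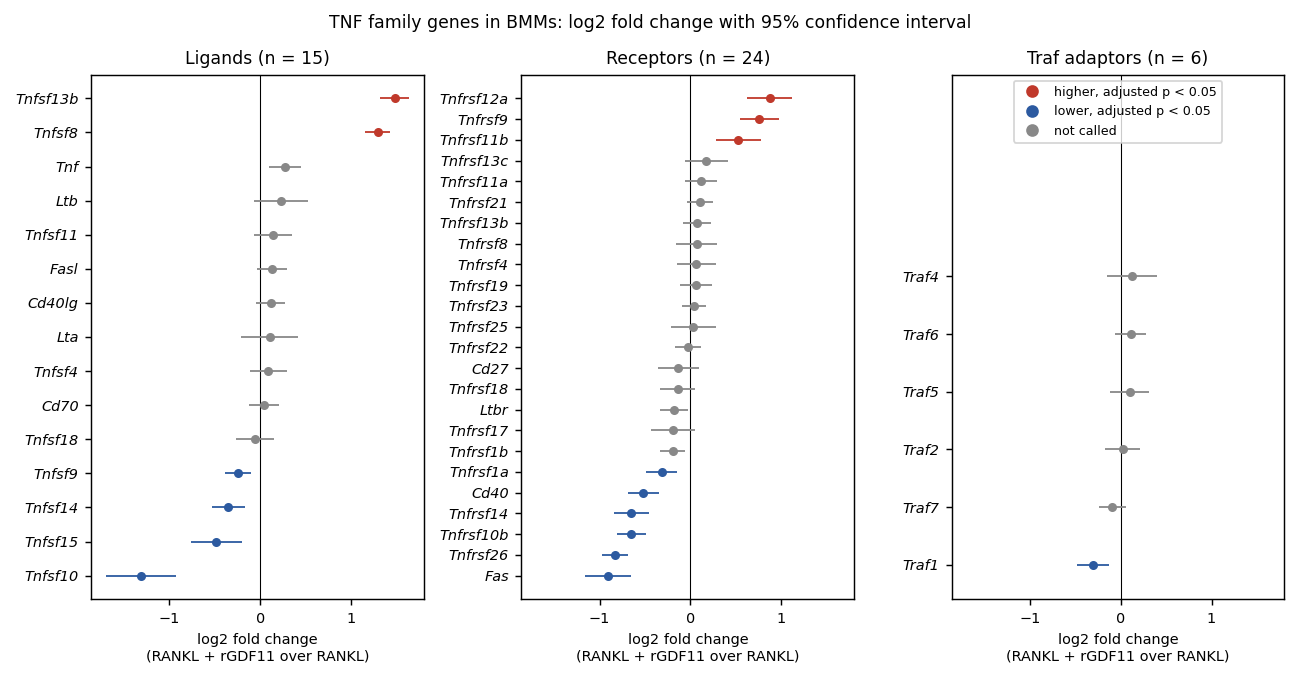
Log2 ratio of rGDF11 to RANKL alone (horizontal axis) for 15 ligands, 24 receptors and 6 Traf adaptors, with the 95% confidence interval from 3 arrays per group. Red and blue points were called higher and lower at an adjusted p under 0.05; *Tnfsf13b* and *Tnfsf8* lie furthest to the right and *Tnfsf10* furthest to the left, with most genes close to 0.

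No array stood apart from its group. Arrays of 1 group correlated at 0.997 to 0.998 across probe sets and arrays of different groups at 0.989 to 0.991. The macrophage label was borne out by *Lyz2*, at a mean log2 value of 13.05 with RANKL alone and 13.03 with rGDF11, and by *Csf1r*, at 12.12 and 12.04. Of 8 osteoclast markers 5 were called higher and *Mmp9* lower, and their mean log2 level went from 7.20 to 7.21 on the RANKL arrays to 7.89 to 8.02 on the rGDF11 arrays. Of the 8, 6 lay above the median level, where 12.1% of all tested probe sets were called higher and 15.1% lower. The calcitonin receptor gene *Calcr*, which marks mature osteoclasts, read a mean of 4.16 with RANKL alone and 4.25 with rGDF11.

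Markers of macrophages and of other cells also differed between the groups. Among all tested probe sets above the median level, 12.1% were called higher and 15.1% lower. At or below it these shares were 2.53% and 2.19%. All 7 macrophage markers and 5 of the 8 neutrophil markers lay above it. Of 7 macrophage markers, *Fcgr1* (log2 fold change −1.41), *Adgre1* (−0.51), *Cd68* (−0.28) and *Itgam* (−0.24) fell, and the mean log2 level of the 7 was 11.33 to 11.35 on the RANKL arrays and 10.94 to 11.02 on the rGDF11 arrays. Of 8 neutrophil markers *S100a8* (0.71) and *Ngp* (adjusted p = 0.00181) rose, with a mean level of 6.29 to 6.32 and 6.55 to 6.64. Of 5 B cell markers *Cd79b* fell (−1.19), while *Cd79a*, *Ms4a1*, *Pax5* and *Blk* were not called, and the mean level was 4.93 to 5.01 and 4.74 to 4.83. Of 5 endothelial markers *Kdr* fell (−0.50) and *Pecam1* rose (0.28). Of 5 dendritic cell markers, all at or below the median level, only *Flt3* was called (0.25), but the log2 fold changes of all 5 were positive, from 0.19 to 0.48. The mean log2 level of these 5 was 5.10 to 5.24 on the RANKL arrays and 5.27 to 5.61 on the rGDF11 arrays. None of 6 T and NK cell markers and none of 4 mast cell and basophil markers was called by limma or by the methods' t-test, and 0 and 1 of them had an unadjusted limma p under 0.05. The part of these shifts in the results for the TNF family was not tested. In RNA from a whole culture, a change in the number of cells of a type and a change in transcript per cell cannot be told apart.

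Among the ligands, *Tnfsf13b* and *Tnfsf8* rose. *Tnfsf13b* encodes BAFF, a survival factor for B cells that myeloid cells secrete. It read 7.23, 7.20 and 7.34 with RANKL alone and 8.78, 8.76 and 8.67 with rGDF11, so that 1.33 log2 units separated the nearest arrays of the 2 groups. The rise was 2.79-fold (log2 fold change 1.48, standard error 0.07; limma, adjusted p = 1.47e-05). *Tnfsf8* encodes the ligand of CD30, a receptor of activated lymphocytes. Its mean lay at or below the median level of the tested probe sets. Its 3 arrays with RANKL alone lay close together at 5.47, 5.50 and 5.50, and all 3 arrays with rGDF11 were far above them at 6.84, 6.77 and 6.73. The rise was 2.44-fold (log2 fold change 1.29, standard error 0.06; adjusted p = 1.69e-05).

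The region before a start site of *Tnfsf13b* is shown because this gene rose most and because 3 motifs lie side by side there. The stretch at chr8:10006493-10006522 on the plus strand (RefSeq, GRCm38.p6) lies at −140 to −111, counted from the second annotated start. In the 250 bases before the first start, the only match was 1 Smad box. Capitals mark an AP-1 motif (TGANTCA) between 2 copies of the Smad box (CAGAC or its reverse complement GTCTG), the second of which follows the AP-1 motif directly.
Tnfsf13b: agcttGTCTGgagTGAGTCAGTCTGaaccc

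The ligand that moved most in the other direction was *Tnfsf10*, which encodes TRAIL, an interferon-inducible ligand that triggers apoptosis through death receptors. It read 5.95, 6.01 and 6.29 with RANKL alone and 5.11, 4.46 and 4.75 with rGDF11. The rGDF11 arrays were spread more widely than those of the other group, yet the groups stayed 0.84 log2 units apart. *Tnfsf10* was 2.48-fold lower (log2 fold change −1.31, standard error 0.17, limma adjusted p = 0.00137). It kept this call in all 13 alternative fits that gave an adjusted p, with values up to 0.0370. These include the average over the probe sets of a gene, which repeats the main fit because each gene has 1 probe set. The mean of *Tnfsf10* lay at or below the median level of the tested probe sets.

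The 250 bases before the annotated start of *Tnfsf10* (chr3:27316827-27317076, plus strand, RefSeq, GRCm38.p6) are given because it fell most. They held none of the 5 motifs searched, so no base is in capitals.
Tnfsf10: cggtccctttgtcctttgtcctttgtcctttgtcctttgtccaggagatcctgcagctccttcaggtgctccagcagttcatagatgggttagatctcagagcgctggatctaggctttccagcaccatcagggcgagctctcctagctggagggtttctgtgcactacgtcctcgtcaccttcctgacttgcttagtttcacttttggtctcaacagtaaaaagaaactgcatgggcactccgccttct

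Smaller decreases were seen for 3 further ligands that costimulate T cells, *Tnfsf15*, *Tnfsf14* and *Tnfsf9*. *Tnfsf15*, which encodes TL1A, read 6.84, 6.43 and 6.67 with RANKL alone and 6.08, 6.07 and 6.33 with rGDF11, a log2 fold change of −0.48 (adjusted p = 0.0301). *Tnfsf14*, which encodes LIGHT, went from 7.94, 7.87 and 7.70 to 7.47, 7.55 and 7.44, a log2 fold change of −0.35 (adjusted p = 0.0216). *Tnfsf9*, which encodes the ligand of CD137, went from 7.92, 7.93 and 8.04 to 7.73, 7.71 and 7.70, a log2 fold change of −0.25 (adjusted p = 0.0313). The groups did not overlap for any of the 3, but each call was lost when certain single arrays were left out. That of *Tnfsf15* was lost without the first or the third RANKL array (adjusted p = 0.0788 and 0.104) and without the first or second rGDF11 array (0.103 and 0.0806). That of *Tnfsf14* was lost without the first or second RANKL array (0.0651 and 0.0708) and without the first or the third rGDF11 array (0.0753 and 0.0718). That of *Tnfsf9* was lost without any 1 of the 6 arrays, with adjusted p from 0.0554 without the first RANKL array to 0.0999 without the third.

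*Tnf* itself, the inflammatory cytokine that gives the family its name, was slightly higher with rGDF11 without passing the threshold. It read 8.96, 8.88 and 9.07 with RANKL alone and 9.30, 9.28 and 9.14 with rGDF11, a log2 fold change of 0.27 with a 95% confidence interval of 0.09 to 0.45 (adjusted p = 0.0536). The highest RANKL array and the lowest rGDF11 array were only 0.07 apart. *Tnf* passed in 4 alternative fits, namely among rows above the median level (adjusted p = 0.0155), after a further quantile normalization (0.0277), with an intensity trend and robust prior (0.00820) and without the third rGDF11 array (0.0496).

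Transcript of *Tnfsf11* in the BMMs is separate from the RANKL protein that was added to the medium. It read 6.78, 6.48 and 6.65 with RANKL alone and 6.79, 6.69 and 6.85 with rGDF11, and the groups overlapped. The log2 fold change was 0.14 with a 95% confidence interval of −0.07 to 0.35 (adjusted p = 0.391). The other 7 ligands that were not called, *Fasl*, *Lta*, *Ltb*, *Cd40lg*, *Cd70*, *Tnfsf4* and *Tnfsf18*, are best known from lymphocytes or antigen-presenting cells, and each had a mean at or below the median level of the tested probe sets. Their log2 fold changes ran from −0.06 for *Tnfsf18* to 0.23 for *Ltb*. The table holds no detection calls, so whether these transcripts were present at all cannot be told. *Tnfsf12* and *Tnfsf13*, for the ligands TWEAK and APRIL, share a probe set with a further symbol and were therefore not counted. That probe set had a log2 fold change of −0.22 (adjusted p = 0.0529).

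**Figure D2:**
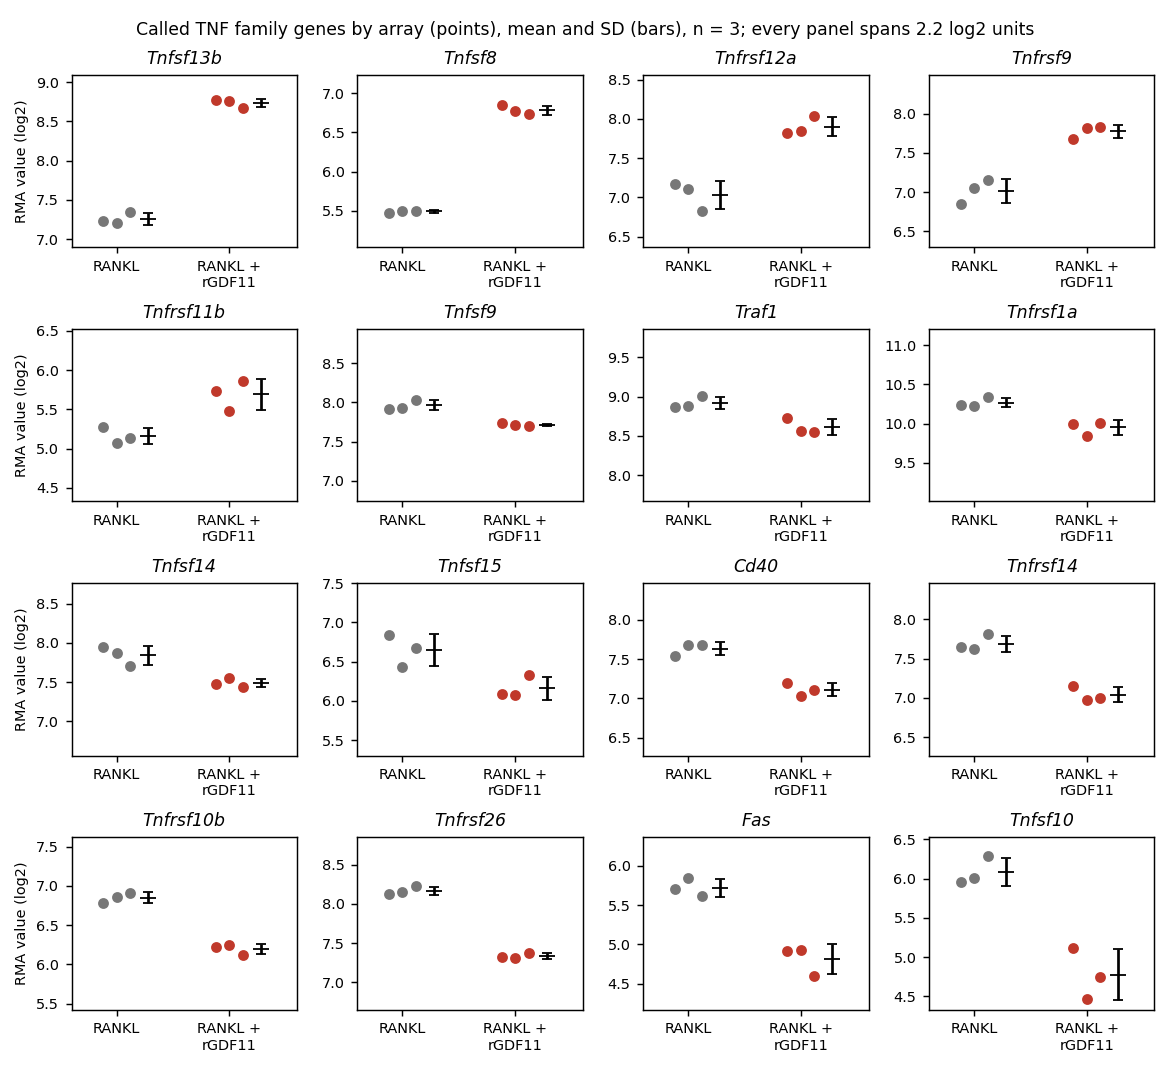
RMA values (log2, vertical axis) of the 16 called TNF family genes on each of 3 arrays with RANKL alone (grey) and 3 with RANKL and rGDF11 (red), with the mean and SD beside the points. The groups do not overlap in any panel; the gap is widest for *Tnfsf13b*, at 1.33 log2 units, and narrowest for *Tnfsf15*, at 0.10.

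Of the 24 receptors, 3 rose. *Tnfrsf12a* encodes Fn14, the receptor of TWEAK, which is induced by growth factors and injury in many cell types. It read 7.16, 7.10 and 6.82 with RANKL alone and 7.82, 7.85 and 8.04 with rGDF11, all 3 of the latter well above the former. The rise was 1.83-fold (log2 fold change 0.87, standard error 0.11; adjusted p = 0.00118). *Tnfrsf9* encodes CD137, a costimulatory receptor that signals through Traf1 and Traf2. It went from 6.85, 7.05 and 7.15 to 7.68, 7.82 and 7.83, a 1.69-fold rise (log2 fold change 0.76, standard error 0.09; adjusted p = 0.00110).

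Sequence before the starts of these 2 receptor genes is shown because both rose. For *Tnfrsf12a* these are the 250 bases before the start (chr17:23677450-23677699, minus strand, RefSeq, GRCm38.p6), where capitals mark the only match, a Smad box. For *Tnfrsf9* these are the bases at −48 to −19 from the second of 2 annotated starts (chr4:150927951-150927980, plus strand), where capitals mark 2 overlapping matches to the kappaB motif. This stretch was chosen for these matches, and the 250 bases before the first *Tnfrsf9* start held none of the motifs searched.
Tnfrsf12a: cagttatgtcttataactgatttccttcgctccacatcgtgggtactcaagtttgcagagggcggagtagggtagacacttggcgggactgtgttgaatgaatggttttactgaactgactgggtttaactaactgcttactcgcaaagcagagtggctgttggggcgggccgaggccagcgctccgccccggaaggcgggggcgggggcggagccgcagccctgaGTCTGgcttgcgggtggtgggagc
Tnfrsf9: cagctGGGGATTTCCCaggaggccctgctc

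*Tnfrsf11b*, the gene for osteoprotegerin, was the third receptor to rise. It read 5.28, 5.08 and 5.14 with RANKL alone and 5.73, 5.48 and 5.86 with rGDF11, which was 1.44-fold higher (log2 fold change 0.53, standard error 0.11; adjusted p = 0.0133). Its mean lay below the median level of the tested probe sets. The call was lost without the third RANKL array (adjusted p = 0.0569), without the first rGDF11 array (0.0518) and by the methods' t-test (0.0842). Osteoprotegerin is mainly a product of stromal cells and osteoblasts, and 4 of 6 markers of these cells were called higher as well. These were *Col1a2* (log2 fold change 0.65), *Col1a1* (0.63), *Pdgfrb* (0.48) and *Alpl* (0.44), while *Cxcl12* (0.21) and *Lepr* (0.20) were not called. Of the 6, 3 lay above the median level, where 12.1% of all tested probe sets were called higher. The other 3 lay at or below it, where 2.53% were. The mean log2 level of the 6 markers was 5.77 to 5.87 on the RANKL arrays and 6.18 to 6.31 on the rGDF11 arrays. The part of such cells in the rise of *Tnfrsf11b* was not tested.

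Among the receptors that fell were death domain receptors. Of 5 measured, *Fas*, *Tnfrsf10b* and *Tnfrsf1a* fell and *Tnfrsf21* and *Tnfrsf25* were not called. Of all tested probe sets 8.64% were called lower, and 15.1% of those above the median level. *Fas*, whose product triggers apoptosis when Fas ligand binds, read 5.71, 5.84 and 5.61 with RANKL alone and 4.92, 4.93 and 4.60 with rGDF11. It was 1.88-fold lower (log2 fold change −0.91, standard error 0.11, limma adjusted p = 0.00105), with 0.68 log2 units between the nearest arrays. The mean of *Fas* lay at or below the median level of the tested probe sets. *Tnfrsf10b*, which encodes the death-inducing TRAIL receptor of the mouse, went from 6.78, 6.85 and 6.91 to 6.22, 6.25 and 6.12. It was 1.57-fold lower (log2 fold change −0.65, standard error 0.07; adjusted p = 0.000560).

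The 250 bases before the annotated start of *Fas* (chr19:34290409-34290658, plus strand, RefSeq, GRCm38.p6) are shown because it fell most among the receptors. Capitals mark an AP-1 motif, first, and a Stat motif (TTCNNNGAA), second.
Fas: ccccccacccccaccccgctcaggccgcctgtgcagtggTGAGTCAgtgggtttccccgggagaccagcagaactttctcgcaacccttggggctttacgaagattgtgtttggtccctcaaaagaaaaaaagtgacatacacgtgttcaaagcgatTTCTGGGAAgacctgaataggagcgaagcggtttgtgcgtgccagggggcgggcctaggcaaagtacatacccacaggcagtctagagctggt

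*Tnfrsf1a* encodes TNF receptor 1, through which TNF starts both NF-κB activation and cell death. It went from 10.24, 10.23 and 10.33 with RANKL alone to 10.00, 9.84 and 10.01 with rGDF11, a log2 fold change of −0.32 (adjusted p = 0.0220). The groups did not overlap, but the call was lost when any 1 array other than the third rGDF11 array was left out. The adjusted p was then 0.0512, 0.0501 and 0.0831 without the first, second and the third RANKL array, and 0.0523 and 0.0625 without the first and second rGDF11 array. TNF receptor 2, *Tnfrsf1b*, which has no death domain, went from 9.41, 9.49 and 9.46 to 9.23, 9.29 and 9.25. Its groups did not overlap either, yet its log2 fold change of −0.20 did not pass (95% confidence interval −0.33 to −0.06, adjusted p = 0.0650). It passed in 3 alternative fits, with an adjusted p of 0.0136 among rows above the median level, 0.0146 with an intensity trend and robust prior and 0.0300 by the methods' t-test.

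*Tnfrsf26*, *Tnfrsf22* and *Tnfrsf23* are neighbours on mouse chromosome 7 and encode related receptors without a death domain, of which the products of *Tnfrsf22* and *Tnfrsf23* are decoys for TRAIL. Of these, *Tnfrsf26* fell. It read 8.13, 8.15 and 8.22 with RANKL alone and 7.32, 7.31 and 7.38 with rGDF11, 1.78-fold lower (log2 fold change −0.83, standard error 0.06; adjusted p = 9.71e-05). The spread within each group was small beside the gap of 0.75 log2 units. *Tnfrsf22* had a log2 fold change of −0.03 (95% confidence interval −0.17 to 0.11) and *Tnfrsf23* of 0.04 (−0.10 to 0.17). The 3 genes are related in sequence, and the deposited values do not show how far probes of one also read another.

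*Tnfrsf14* and *Cd40* completed the receptors that fell. *Tnfrsf14* encodes HVEM, the receptor of LIGHT. It read 7.64, 7.62 and 7.81 with RANKL alone and 7.15, 6.97 and 6.99 with rGDF11, 1.57-fold lower (log2 fold change −0.65, standard error 0.08; adjusted p = 0.00137). *Cd40*, an interferon-inducible receptor by which T cells activate macrophages and B cells, went from 7.53, 7.68 and 7.68 to 7.19, 7.04 and 7.11. It was 1.43-fold lower (log2 fold change −0.52, standard error 0.07; adjusted p = 0.00242), short of the methods' fold change of 1.5. Both kept their calls in each of the 14 alternative fits that gave an adjusted p, at 0.0214 or lower for *Tnfrsf14* and 0.0212 or lower for *Cd40*. The average over the probe sets of a gene is among these fits and repeats the main fit, because each gene has 1 probe set.

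A stretch before the start of *Tnfrsf14* is shown for its interferon-stimulated response element motif. No other match to this motif was found before the 7 genes that fell and had upstream sequence. *Cd40* had no such sequence and was not searched. The *Tnfrsf14* stretch lies at −74 to −45 from the start (chr4:154928122-154928151, minus strand, RefSeq, GRCm38.p6), with the motif in capitals. The 250 bases before this start also held 3 Smad boxes, all outside the stretch. The interferon-stimulated response element motif was also found before *Tnfsf13b*, which rose.
Tnfrsf14: ctattttttcTTTCATTTTCacttttcctt

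RANK, the receptor of the added RANKL, showed no detectable difference. *Tnfrsf11a* read 9.86, 10.01 and 10.11 with RANKL alone and 10.13, 10.11 and 10.09 with rGDF11, and the groups overlapped. Its log2 fold change was 0.12 with a 95% confidence interval of −0.06 to 0.29 (adjusted p = 0.399). The receptors of BAFF were not called either, with log2 fold changes of 0.17 for *Tnfrsf13c* (adjusted p = 0.338), 0.08 for *Tnfrsf13b* (0.537) and −0.19 for *Tnfrsf17* (0.293). *Tnfrsf17* is known from plasma cells and *Tnfrsf13c* from B cells. *Ltbr*, the lymphotoxin-β receptor of stromal and myeloid cells, went from 7.91, 7.95 and 7.88 to 7.65, 7.82 and 7.72, a log2 fold change of −0.18 (95% confidence interval −0.34 to −0.02). The adjusted p of *Ltbr* was 0.126, and it passed only among rows above the median level (0.0383). The 15 receptors that were not called had log2 fold changes between −0.20 and 0.17.

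Of the 6 Traf adaptors measured, *Traf1* fell and the others were not called. *Traf3* had no probe set paired with it alone and was not included. *Traf1*, an NF-κB target that modifies signalling by Traf2, read 8.87, 8.88 and 9.01 with RANKL alone and 8.73, 8.57 and 8.55 with rGDF11, a log2 fold change of −0.30 (adjusted p = 0.0333). The lowest RANKL array lay 0.14 above the highest rGDF11 array. This call was lost without the first, second or the third RANKL array (adjusted p = 0.0599, 0.0672 and 0.113) and without the second or the third rGDF11 array (0.0927 and 0.105). *Traf6*, the adaptor of RANK, went from 9.23, 9.25 and 9.40 to 9.49, 9.35 and 9.40, a log2 fold change of 0.11 with a 95% confidence interval of −0.06 to 0.28 (adjusted p = 0.387). *Traf2*, *Traf4*, *Traf5* and *Traf7* had log2 fold changes from −0.09 for *Traf7* to 0.13 for *Traf4*.

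Ligands and receptors were then set side by side as pairs, from a list of 24 known pairs of which 21 had both genes measured. Both genes were called in 3 pairs, only the ligand in 6, only the receptor in 5 and neither in 7. Some genes are in several of these pairs, among them *Tnfsf13b*, *Tnfrsf1a* and *Tnfsf14*, so the pairs are not separate observations. Taken singly, 16.0% of all tested probe sets and 35.6% of the family genes were called in either direction. *Tnfsf10* and its receptor *Tnfrsf10b* were both lower, and so were *Tnfsf14* and *Tnfrsf14*. In the third pair the genes moved in opposite directions, with *Tnfsf9* at −0.25 and *Tnfrsf9* at 0.76 on the log2 fold change scale. *Tnfrsf22* (−0.03) and *Tnfrsf23* (0.04), whose products are decoys for TRAIL, were not in the list of pairs and were not called. *Tnfsf13b* and *Tnfsf8* rose beside receptors that were not called (*Tnfrsf8* 0.07, adjusted p = 0.723). *Tnfsf15* fell beside *Tnfrsf25*, which is known from T cells and read 0.03 (adjusted p = 0.896). *Fas* and *Cd40* fell beside ligands of lymphocytes, *Fasl* (0.13, adjusted p = 0.285) and *Cd40lg* (0.12, adjusted p = 0.344). *Tnfrsf1a* fell while its ligands *Tnf* and *Lta* (0.10, adjusted p = 0.699) were not called. Whether the 2 genes of a pair differ in their response was not tested.

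**Figure D3:**
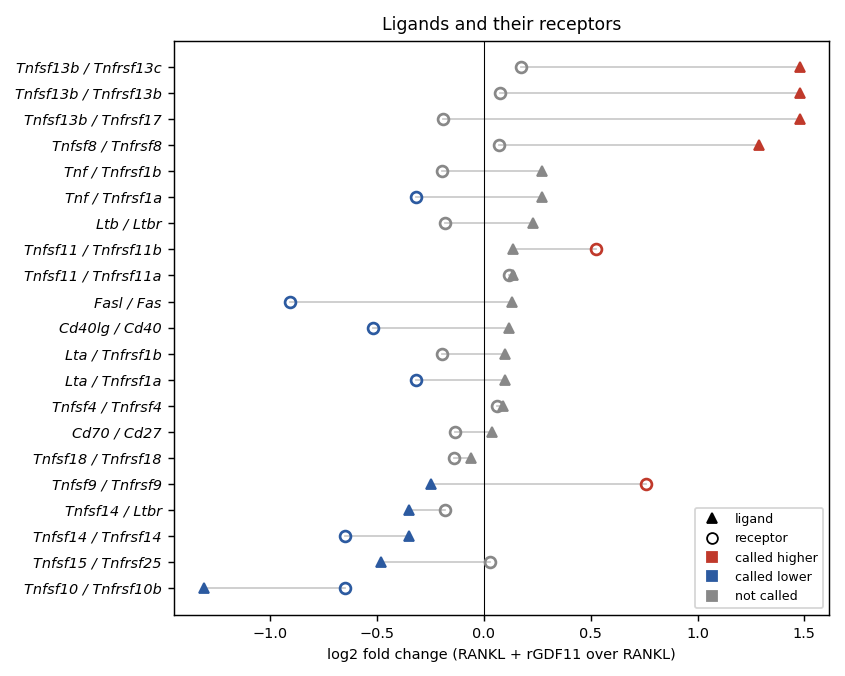
Change on the log2 scale with rGDF11 relative to RANKL alone (horizontal axis) for the ligand (triangle) and the receptor (circle) in each of 21 pairs; red, blue and grey mark genes called higher, called lower and not called. Both symbols are blue in the *Tnfsf10* and *Tnfrsf10b* and the *Tnfsf14* and *Tnfrsf14* pairs, and *Tnfsf9* (−0.25) and *Tnfrsf9* (0.76) lie on opposite sides of 0.

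Many genes of the family sit next to each other in the genome. By the gene order of GRCm38.p6, 21 of the 45 formed 13 pairs with at most 1 other protein-coding gene between them. Both genes were called in 1 of these pairs, 1 gene in 4 and neither in 8, while 16.0% of all tested probe sets were called. The pair with both called was *Tnfsf15* and *Tnfsf8* on chromosome 4, which lie side by side and moved in opposite directions, with log2 fold changes of −0.48 and 1.29. *Tnf* lies between *Ltb* and *Lta* on chromosome 17, and its log2 fold change of 0.27 stood beside 0.23 for *Ltb* (adjusted p = 0.313) and 0.10 for *Lta*. *Cd70* (0.04, adjusted p = 0.804) lies between *Tnfsf9* and *Tnfsf14*, which were both lower.

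Upstream sequence was searched for 5 motifs on both strands, in the 250 bases before each annotated start. RefSeq windows were present for 36 of the 45 genes, 4 of them called higher and 7 lower. The Smad box was found in 42.2% of all 32851 windows, and in a window of 3 of the 4 genes that rose, 2 of the 7 that fell and 14 of the 25 that were not called. The AP-1 motif was found in 6.75% of all windows, and before *Tnfsf13b*, *Tnfrsf9*, *Fas*, *Tnfsf14* and 1 gene that was not called. The interferon-stimulated response element motif was in 2.98% of all windows and was present before *Tnfsf13b*, *Tnfrsf14* and 2 genes that were not called. The Stat motif was in 7.02% of all windows and was present before *Tnfrsf9*, *Fas*, *Tnfrsf1a* and 5 genes that were not called. The kappaB motif was in 3.90% of all windows and was present before *Tnfrsf9* and 2 genes that were not called. Some genes have several windows, which makes a match more likely, and a match shows letters and no binding.

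Genes that carry or limit the signals of the family were followed through 4 lists. Of 32 measured genes of the receptor signalling complexes, 2 rose and 6 fell, with a median log2 fold change of −0.09. All 32 lay above the median level, and the 25% of them that were called (18.8% lower) stood beside 27.2% (15.1% lower) of all tested probe sets above that level, so the list as a whole was near the background. The 4 largest changes were decreases in *Mlkl* (−1.16, adjusted p = 2.63e-05) and *Ripk3* (−0.71, adjusted p = 0.000178), the executor and the kinase of necroptosis, and in *Ikbke* (−1.04, adjusted p = 3.44e-05) and *Tifa* (−0.41, adjusted p = 0.00451), a kinase of interferon induction and a Traf6-binding adaptor. *Mlkl* read 8.98 ± 0.05 with RANKL alone and 7.82 ± 0.04 with rGDF11 (SD, n = 3 arrays per group). Of 10 NF-κB factors and inhibitors, *Nfkbiz* (0.52, adjusted p = 0.00101) and *Nfkbid* (0.31, adjusted p = 0.0394), both nuclear IκB proteins, rose and 8 were not called. These 10 genes also lay above the median level, and the 20% called was below the background of 27.2% there.

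Of 10 genes for shedding and processing, 3 rose and 1 fell. Of the 10, 9 lay above the median level, where 12.1% of all tested probe sets were called higher and 15.1% lower. *Furin*, a convertase that processes BAFF among many proproteins, had a log2 fold change of 1.03 (adjusted p = 5.60e-05). *Mmp14*, a membrane protease, had one of 1.57 (adjusted p = 9.91e-05), and *Timp3*, which inhibits the TNF-shedding protease Adam17, one of 0.91 (adjusted p = 0.000267). *Frmd8*, which stabilises the shedding complex, fell by 0.34 on the log2 scale (adjusted p = 0.0169). Of 9 genes that control *Tnf* mRNA, *Zfp36*, whose product tristetraprolin destabilises it, fell (−0.55, adjusted p = 0.000581) and *Zc3h12a*, which encodes the ribonuclease Regnase-1, rose (0.47, adjusted p = 0.0130). These 2 were 22.2% of the list, whose genes all lay above the median level, where 27.2% of all tested probe sets were called.

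**Figure D4:**
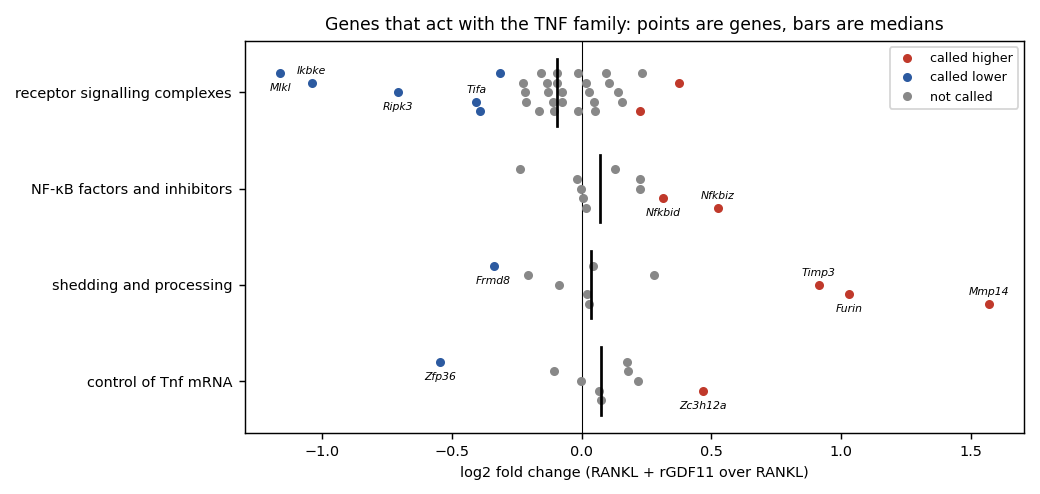
Log2 ratio of rGDF11 to RANKL alone (horizontal axis) for the measured genes in 4 lists, 1 point per gene, with the list median as a black bar; red and blue points were called higher and lower at an adjusted p under 0.05. *Mlkl* (−1.16) and *Mmp14* (1.57) lie furthest out, while the 4 medians lie between −0.09 and 0.08.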

How the data were processed

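Per the labels and the study's methods, RNA of the 6 samples was read on Mouse Gene 1.0 ST arrays from Affymetrix. The deposited log2 values, 1 per probe set and array, were made by the authors with RMA in Expression Console, and the submitters' processing notes also name Transcriptome Analysis Console, version 3.0. Background correction and normalization across arrays are thus already in them and were kept. Of 35556 probe sets, 23410 had a gene symbol in the platform annotation (21789 with 1 and 1621 with several) and were tested two-sided in R 4.3.3 with the moderated test of limma 3.58.1, with no intensity trend. P-values were adjusted over all of them by the Benjamini-Hochberg method. A gene was called at an adjusted p under 0.05. All 45 symbols matched a GRCm38.p6 gene table by Entrez identifier. The 3 arrays per group limit the precision, and arrays have no depth. The fit was tested on simulated data.

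The members and lists were chosen with earlier results of these data known. Named were all called members, the RANKL, TNF and Traf6 genes, partners of called genes and up to 4 called genes per list. Genes of the pathway lists not analysed here for want of a probe set of their own were *Ripk1*, *Chuk* and *Nfkb1*. Upstream sequences came from RefSeq, GRCm38.p6. Alternatives covered the rows tested, dim rows, 2 normalizations, the prior, the methods' t-test and threshold, the replicate block, each array and several probe sets per gene.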

Additional observations from a re-analysis of the deposited data

How the results depend on the processing

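Of the 16 called genes, *Tnfsf13b*, *Tnfsf8*, *Tnfsf10*, *Tnfrsf9*, *Tnfrsf12a*, *Tnfrsf14*, *Tnfrsf10b*, *Tnfrsf26* and *Fas*, 9 in all, kept their call and direction in every alternative that held them, the methods' threshold included, and *Cd40* in all but that threshold. *Tnfsf14*, *Tnfsf9*, *Tnfsf15*, *Tnfrsf1a* and *Traf1* were lost when all rows of the table were tested, which left 6 family genes lower. The methods' threshold left 4 higher and 5 lower, beside 483 and 694 probe sets, and the methods' t-test called 4 and 5 at that threshold and 4 and 8 after Benjamini-Hochberg adjustment. With 1 array left out, 4 to 6 family genes were higher and 6 to 8 lower, and 1129 to 1357 probe sets were higher over all. The fewest probe sets were higher without the first rGDF11 array. Of genes that were not called, 5 changed sign with 1 array left out, with log2 fold changes between −0.0102 and 0.0689 for *Cd70*, −0.0138 and 0.21 for *Lta*, −0.0572 and 0.10 for *Tnfrsf25*, −0.00694 and 0.14 for *Tnfrsf4* and −0.0585 and 0.0689 for *Traf2*. Same-numbered arrays deviated together in 1 of 3 pairs, with correlations of 0.06, 0.33 and −0.00083, and 3 of the 6 arrays correlated best with their own number in the other group, so the numbers were not taken to pair the samples. With the replicate number as a block, 5 family genes were higher and 9 lower, and 1676 and 1943 probe sets over all, without *Tnfsf9* (adjusted p = 0.0568) and *Traf1* (0.0614). Each gene has 1 probe set of its own, so averaging probe sets changed nothing. The table holds no background or detection values, so the signal over background of the dim genes cannot be judged.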
